A study of Mus musculus with 8 samples.

Results

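The 10 genes of the mesenchymal matrix and actin programme were followed in newly made RNA of mouse embryonic stem cells: Fn1, Fbn1, Sparc, Col1a1, Col1a2, Col3a1, Thy1, Vim, Acta2 and Tagln. They were picked by name, so that the set holds 10 of the 37777 gene entries in the deposited table. Genes that reached a value of 10 in 2 or more libraries entered the tests, 20649 in all, and 8 of the 10 were among them. Thy1 and Col3a1 stayed below 10 in every library. Acta2 entered through 3 libraries, each of them treated with 4-hydroxytamoxifen, and Col1a2 through 2 libraries.

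The cells were male embryonic stem cells from 129 mice, grown without feeder cells in serum with leukaemia inhibitory factor, and carried a conditional knockout of Ythdc1, whose product binds N6-methyladenosine on RNA in the nucleus. The groups were 4-hydroxytamoxifen (4OHT, 1 μg/ml) with 8 min of label, DMSO with 8 min, 4OHT with 0 min and DMSO with 0 min, each of 2 libraries. Treatment ran for 4 days, after which all cells, DMSO controls included, had their RNA polymerase II halted with DRB (100 μM, 3 h), were washed and received 1 mM 4-thiouridine (4sU), and 4sU-containing RNA was purified. With a label of 0 min no labelling time passes, so what the 0 min libraries hold besides carried-over RNA is not known. Sample titles name cell line 1 at 0 min and line 2 at 8 min, but columns numbered 1 and 2 exist for both times. Whether the line changed with labelling time is therefore unsettled, and the column numbers serve here only as names of libraries. Columns without 4OHT in their name were taken as DMSO. Nothing states that the 2 libraries of a group came from separate cultures, so the spread that the p-values measure is that of these libraries and may be technical.

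The mesenchymal programme makes the extracellular matrix around cells and the contractile machinery inside them. Fibronectin, fibrillin and the fibrillar collagens assemble into fibres outside the cell, SPARC binds collagen and modulates its deposition, and THY1 is a surface glycoprotein used to mark fibroblasts. Vimentin forms intermediate filaments, smooth muscle α-actin forms contractile filaments and transgelin binds actin. TGF-beta signalling and serum response factor (SRF), which binds the CArG box, are well-known inducers of these genes, and pluripotent cells generally keep most of them low.

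Promoter windows (250 bases before to 50 after a start, RefSeq, GRCm38.p6) were given for 6 of the 10 genes, Vim, Col1a2, Col3a1, Acta2, Fbn1 and Sparc. For Acta2 and Fbn1, both on the minus strand, the start used lies inside the gene's span given below, not at its upper end. Most of the Acta2 window thus lies within that span. Fn1, Thy1, Tagln and Col1a1 are named only. 4 windows are shown, that of Vim, which was lower with 4OHT at 8 min in the test described next, that of Col1a2, whose 4OHT values also lay below its DMSO values, and those of Acta2 and Sparc, whose treatment groups overlapped. Each runs 5′ to 3′ on the gene's strand, and capitals mark matches to TATAAA (the TATA box), CCAAT (the CCAAT box) and GGGCGG (the GC box) on either strand.
Vim (chr2:13574061-13574360, plus strand): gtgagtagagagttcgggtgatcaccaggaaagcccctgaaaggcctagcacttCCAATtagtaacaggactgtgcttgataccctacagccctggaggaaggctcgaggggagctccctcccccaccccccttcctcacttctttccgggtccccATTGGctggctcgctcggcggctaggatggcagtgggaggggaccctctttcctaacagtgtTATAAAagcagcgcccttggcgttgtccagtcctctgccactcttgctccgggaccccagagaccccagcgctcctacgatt
Col1a2 (chr6:4505368-4505667, plus strand): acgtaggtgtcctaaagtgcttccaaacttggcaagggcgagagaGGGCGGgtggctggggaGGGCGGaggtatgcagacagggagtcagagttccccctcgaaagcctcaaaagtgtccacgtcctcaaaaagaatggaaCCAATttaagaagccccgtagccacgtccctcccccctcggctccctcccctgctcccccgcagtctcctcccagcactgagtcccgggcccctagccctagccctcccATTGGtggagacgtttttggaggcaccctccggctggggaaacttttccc
Acta2 (chr19:34255324-34255623, minus strand): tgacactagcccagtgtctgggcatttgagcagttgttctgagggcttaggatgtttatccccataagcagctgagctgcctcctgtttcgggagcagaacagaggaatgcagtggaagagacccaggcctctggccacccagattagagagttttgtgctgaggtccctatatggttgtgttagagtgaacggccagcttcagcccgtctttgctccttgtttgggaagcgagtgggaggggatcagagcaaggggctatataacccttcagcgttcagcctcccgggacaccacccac
Sparc (chr11:55420031-55420330, minus strand): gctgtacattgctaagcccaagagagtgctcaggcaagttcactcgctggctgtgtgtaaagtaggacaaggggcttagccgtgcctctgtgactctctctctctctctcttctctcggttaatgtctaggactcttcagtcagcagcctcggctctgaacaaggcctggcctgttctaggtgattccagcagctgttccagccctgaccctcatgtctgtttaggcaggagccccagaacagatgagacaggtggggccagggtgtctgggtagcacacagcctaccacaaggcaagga
The motifs differed between these windows. Positions count from the start used for the window, at 1, to the first base of the match. Vim held TATAAA at -32 and CCAAT at -196 and, on the opposite strand, at -94. Col1a2 held CCAAT at -109 and, on the opposite strand, at 1, and GGGCGG at -205 and -188. Col3a1 held TATAAA at -117 and Fbn1 held GGGCGG at -185, while Acta2 and Sparc held none of the 3 motifs in these exact letters. The exact search misses near matches, such as TATATAA in the Acta2 window, so it does not show that a TATA box is absent. The CArG box was searched in its strict form, with only A or T between CC and GG. This misses elements that depart from that form by a base, such as CCCTATATGG and CCTTGTTTGG in the Acta2 window. That strict form matched in none of the 6 windows, which says nothing of SRF binding. Among all 32851 windows of this length, 1.63% held the strict CArG box, 13.6% TATAAA, 37.4% CCAAT and 35.7% GGGCGG, so that a match is a description of the letters and not evidence of a bound factor.

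Reads recovered from the deposited values numbered 93.1 to 134 M a library at 8 min and 46.3 to 61.4 M at 0 min. On the deposited scale the 4OHT libraries of 8 min were higher across most genes, with a median log2 fold change over all genes of 1.43, against 0.28 at 0 min. Values were therefore also divided by a median-ratio factor for each library, computed among the 4 libraries of a labelling time, and are called scaled values below. These factors were 1.32 and 2.10 in the 4OHT libraries and 0.480 and 0.756 in the DMSO libraries of 8 min. A scaled change is a change relative to the other genes, whose median was -0.001 at 8 min, and scaled values of 8 and 0 min are not on 1 scale. Ythdc1, the targeted gene, had scaled values of 2037 and 2460 with 4OHT, against 2933 and 3584 with DMSO at 8 min. It fell by 0.53 on the log2 scale (SE 0.130, adjusted p = 0.00257), a call that was lost without 4OHT library 1 (adjusted p = 0.171). It was also lost with all 8 libraries fitted together (adjusted p = 0.465), and on the deposited scale the change was 0.93 (adjusted p = 0.17). Reads were still counted on Ythdc1 in every 4OHT library, and the labels do not say which exons 4OHT removes. Of 10 embryonic stem cell markers, all 10 passed the filter, and their summed scaled value was 6491 to 6521 with 4OHT, against 7199 to 7828 with DMSO at 8 min. Of 10 fibroblast markers 4 passed, and all 10 together summed to 161 to 167 with 4OHT, against 99.7 to 123 with DMSO. Mmp2 had the highest mean deposited value of them, 68.9, against 13.4 for the next, Pdgfra. Among these 10 markers, Ly6a was at 0 in both 4OHT libraries of 8 min, and Lum was at 0 in all libraries of 0 min. The part of fibroblasts in the results was not tested.

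At 8 min, Fn1, Vim and Col1a1 fell relative to the other genes with 4OHT, and no member rose. The other 5 tested members did not pass the threshold, an adjusted p of 0.05 in limma over all 20649 genes. The count of 3 of 8 lower stands beside 16.7% of all tested genes, and the count of 0 higher beside 18.6%. The median log2 fold change was -0.36 over the 8 tested members and -0.001 over all genes. Both 4OHT libraries lay below both DMSO libraries for 4 of the 8 tested members, Fn1, Vim, Col1a1 and Col1a2, beside 33.7% of all tested genes, and above them for none, beside 33.6%. These 3 calls rest on a spread estimated from the 4 libraries of 8 min. When all 8 libraries were scaled and fitted together, 0 members were called, beside 0.136% of genes lower and 0.00969% higher, with log2 changes of -0.62 for Fn1 (adjusted p = 0.273), -0.73 for Vim (adjusted p = 0.386) and -1.06 for Col1a1 (adjusted p = 0.514). Without the filter on low values, 0 members were called as well, beside 0 of 37038 genes in either direction. The adjusted p was then 0.0553 for Fn1, 0.0606 for Vim and 0.179 for Col1a1.

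Among the secreted glycoproteins, Fn1, which encodes fibronectin, was the most strongly read member. The gene (gene ID 14268; GRCm38.p6 chromosome 1, 71585473 to 71653280) had scaled values of 928 and 898 with 4OHT, against 1333 and 1327 with DMSO at 8 min, from 13880 and 15268 reads with 4OHT and 18882 and 14996 with DMSO. The groups did not overlap, and the 2 libraries of a group lay close together. The mean was 913 ± 21.5 with 4OHT and 1329.99 ± 4.47 with DMSO (SD, n = 2 each), and Fn1 fell by 0.54 on the log2 scale (SE 0.107, adjusted p = 0.000394). Leaving out any 1 library of 8 min kept the change between -0.57 and -0.52, with adjusted p of 0.000145 to 0.0119. At 0 min the scaled values of Fn1 were 436 and 497 with 4OHT, against 417 and 446 with DMSO, and overlapped.

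Fbn1 encodes fibrillin-1, the backbone of elastic microfibrils, and is the longest gene of the set at 206 kb (gene ID 14118; chromosome 2, 125300594 to 125506485). Its scaled values at 8 min were 53.8 and 58.9 with 4OHT, against 62.3 and 58.6 with DMSO. The groups overlapped, and the log2 change, -0.10 (SE 0.179, adjusted p = 0.70), did not pass. At 0 min Fbn1 spread widely within each group, with 17.9 and 45.0 with 4OHT, against 31.4 and 54.9 with DMSO.

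Sparc (gene ID 20692; chromosome 11, 55394159 to 55420080) showed no separation of the treatments. At 8 min it had scaled values of 197 and 228 with 4OHT, against 197 and 205 with DMSO, and its log2 change was 0.08 (SE 0.126, adjusted p = 0.675). At 0 min they were 156 and 141 with 4OHT, against 167 and 135 with DMSO. The groups overlapped at both times.

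The fibrillar collagens were read far less deeply. Col1a1 (gene ID 12842; chromosome 11, 94936224 to 94953042) encodes the α1 chain of type I collagen, and had scaled values of 9.10 and 15.9 with 4OHT, against 22.9 and 29.2 with DMSO at 8 min. These rested on 136 and 270 reads with 4OHT and 325 and 330 reads with DMSO. The groups did not overlap, although the 4OHT libraries differed from each other by more than the DMSO libraries did. Col1a1 fell by 1.04 on the log2 scale (SE 0.299, adjusted p = 0.00894), the largest fall among the 8 tested members. The change was -0.67 and its adjusted p 0.184 without 4OHT library 1, so that this call depends on 1 library. At 0 min its order was turned, without passing: 22.7 and 13.8 with 4OHT, against 14.9 and 4.73 with DMSO (log2 fold change 0.98, SE 0.648, adjusted p = 1), and the groups overlapped.

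Col1a2 (gene ID 12843; chromosome 6, 4505618 to 4541543) encodes the partner α2 chain. Its scaled values were 3.61 and 6.23 with 4OHT, against 7.77 and 10.8 with DMSO at 8 min, and 4.93 and 4.76 with 4OHT, against 10.1 and 12.8 with DMSO at 0 min. Both 4OHT libraries lay below both DMSO libraries at each time, but neither difference passed the test, with log2 fold changes of -0.82 (SE 0.404, adjusted p = 0.12) at 8 min and -1.08 (SE 0.471, adjusted p = 1) at 0 min. Col3a1 (gene ID 12825; chromosome 1, 45311538 to 45349706), which encodes the chain of type III collagen, was close to the limit of measurement with 10 to 32 reads a library. Its scaled values at 8 min were 0.669 and 1.41 with 4OHT, against 1.41 and 2.12 with DMSO. Its log2 fold change was -0.45 in the fit without a filter (adjusted p = 0.437) and with the minimum lowered to 1, a setting chosen after seeing the data (adjusted p = 0.512).

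Thy1 (gene ID 21838; chromosome 9, 44043384 to 44048579) likewise had few reads, between 34 and 101 a library. Thy1 read 2.27 and 2.12 with 4OHT, against 5.93 and 4.60 with DMSO on the scaled values of 8 min, so that the groups were apart. Its log2 fold change in limma was -0.96, with adjusted p = 0.148 without a filter and 0.126 with the minimum lowered to 1, and -1.24 with adjusted p = 0.184 in edgeR on the recovered reads with that minimum, none past the threshold. At 0 min the values were 4.93 and 3.81 with 4OHT, against 5.00 and 5.28 with DMSO.

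In the cytoskeletal group, Vim (gene ID 22352; chromosome 2, 13574311 to 13582826), whose promoter window carries the TATAAA match shown above, also fell. At 8 min, Vim had scaled values of 65.4 and 65.0 with 4OHT, against 97.9 and 109 with DMSO. The groups were well apart, with a mean of 65.2 ± 0.257 with 4OHT and 103 ± 7.88 with DMSO (SD, n = 2 each). Vim fell by 0.66 on the log2 scale (SE 0.159, adjusted p = 0.00253), and the adjusted p stayed between 0.00135 and 0.0169 when any 1 library of 8 min was left out. At 0 min its values were 26.3 and 18.1 with 4OHT, against 19.4 and 16.1 with DMSO, and overlapped.

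Acta2 (gene ID 11475; chromosome 19, 34240336 to 34255585), the gene for smooth muscle α-actin, was the member whose 4OHT libraries of 8 min differed by the largest ratio. Its scaled values at 8 min were 10.6 and 27.8 with 4OHT, against 11.6 and 12.2 with DMSO, so that 1 4OHT library lay below and the other above the DMSO libraries. Its log2 change, 0.50 (SE 0.353, adjusted p = 0.286), did not pass. It was 1.15 without 4OHT library 1, and -0.15 without 4OHT library 2. Since Acta2 passed the filter only through 4OHT libraries, a rise of it with 4OHT supports nothing. At 0 min the values of Acta2 were 5.65 and 12.7 with 4OHT, against 3.76 and 5.56 with DMSO, both 4OHT libraries being above both DMSO libraries without a call (log2 fold change 0.77, SE 0.573, adjusted p = 1). Smooth muscle markers gave a summed scaled value of 278 to 307 with 4OHT, against 261 to 263 with DMSO at 8 min, with 7 of 8 markers past the filter, none at 0 in both libraries of a group and none called. Their part in the Acta2 values was not tested.

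Tagln (gene ID 21345; chromosome 9, 45929628 to 45936058), which encodes transgelin, split in the same way. It had scaled values at 8 min of 12.0 and 27.0 with 4OHT, against 19.1 and 21.9 with DMSO, and those at 0 min were 21.2 and 26.9 with 4OHT, against 26.9 and 17.4 with DMSO. The log2 fold change at 8 min was -0.17 (SE 0.313, adjusted p = 0.705). It was 0.38 without 4OHT library 1 and -0.72 without 4OHT library 2, neither past the threshold. Tagln overlaps Pcsk7 by 2480 bases, and the strand counted is not stated, so that reads of this stretch cannot be assigned to either gene. Pcsk7 itself had scaled values of 93.5 and 93.0 with 4OHT, against 92.6 and 91.4 with DMSO at 8 min.

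**Figure D1:**
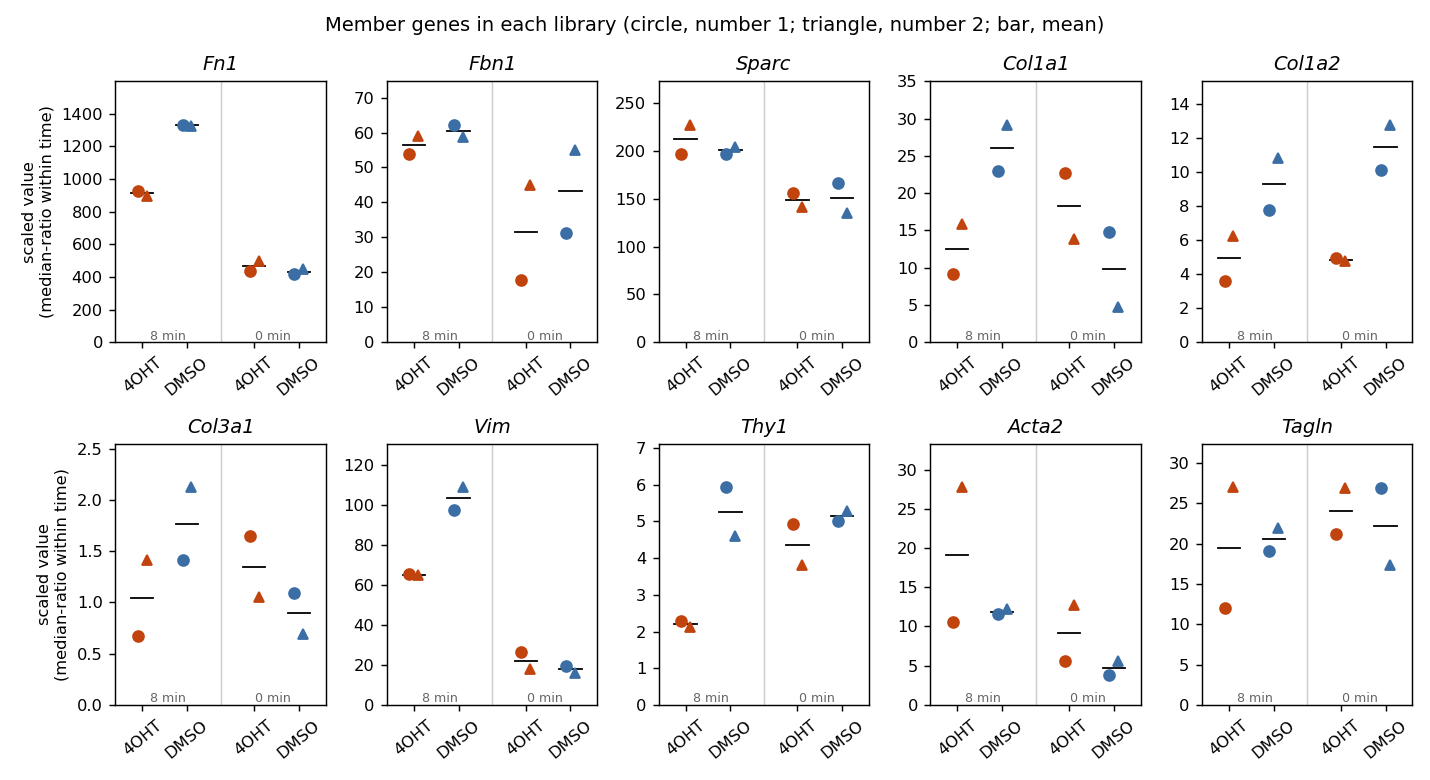
Scaled value (linear axis from 0) of each of the 10 genes in each library, with 8 min on the left and 0 min on the right of each panel, 4OHT left of DMSO, a circle for library 1, a triangle for library 2 and a bar for the mean. The 4OHT libraries of 8 min lie below the DMSO libraries for Fn1, Vim, Col1a1, Col1a2 and Thy1, and barely for Col3a1 (1.4114 against 1.4121). Thy1 and Col3a1 were not tested, and 33.7% of all tested genes lie below in this way. Acta2 and Tagln split the 2 4OHT libraries. Values of 8 and 0 min are scaled separately.

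At 0 min, 0 of the 8 tested members were called in either direction on the scaled values, beside 0% of all genes. Over all genes limma gave 141 higher and 90 lower at an unadjusted p of 0.05, edgeR gave 97 and 48 and DESeq2 gave 185 and 88, with 0 past the adjusted threshold in each. The member median was 0.12 on the log2 scale. The standard error of each tested member was larger at 0 min (0.299 to 0.648 over the members) than at 8 min (0.107 to 0.404).

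**Figure D2:**
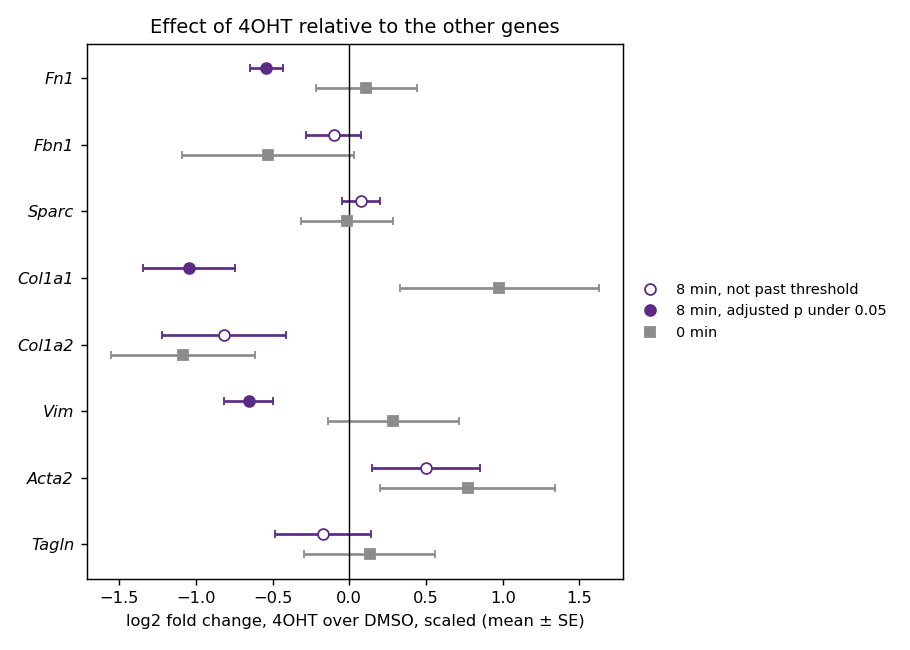
Log2 fold change of 4OHT over DMSO (horizontal axis) after median-ratio scaling within each labelling time, for the 8 tested genes, with circles for 8 min, squares for 0 min and bars for the standard error. Filled circles mark Fn1, Vim and Col1a1, at -0.54, -0.66 and -1.04, whose adjusted p was under 0.05. No square passed the threshold.

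On the deposited scale, where the common rise of the 4OHT libraries is kept, the same genes read differently. Spike-in entries are not level on this scale: at 8 min they summed to 4323 and 6391 with 4OHT, against 1028 and 4194 with DMSO. At 0 min they summed to 2520 and 31054 with 4OHT, against 3080 and 19419 with DMSO. Whether the common rise is one of RNA output was not tested. Acta2, Sparc and Fbn1 rose at 8 min and no member fell, beside 58.7% of all genes called higher and 0.131% called lower. Acta2 had deposited values of 13.986 and 58.3 with 4OHT, against 5.56 and 9.23 with DMSO (log2 fold change 1.86, SE 0.639, adjusted p = 0.0144). Since Acta2 passed the filter only through 4OHT libraries, its call and its place in the count support nothing. The change was 2.86 without 4OHT library 1 of 8 min and 0.87 without 4OHT library 2 of 8 min (adjusted p = 0.394). Sparc had 260 and 479 with 4OHT, against 94.5 and 155 with DMSO (1.54, SE 0.587, adjusted p = 0.0241). Fbn1 had 71.2 and 124 with 4OHT, against 29.9 and 44.3 with DMSO (1.34, SE 0.598, adjusted p = 0.0446). All 3 had groups that did not overlap. Fn1 had 1229 and 1886 with 4OHT, against 640 and 1003 with DMSO, also apart, but its log2 fold change of 0.93 did not pass (adjusted p = 0.174), and neither did those of Tagln (1.22, adjusted p = 0.0722), Vim (0.80, adjusted p = 0.212), Col1a2 (0.46, adjusted p = 0.501) and Col1a1 (0.35, adjusted p = 0.602). Fn1, Vim, Col1a1, Col1a2, Tagln and Fbn1 lay below the median of all genes of 1.43 on this scale, and Acta2 and Sparc above it. The count of 3 was 0 without a filter, beside 6530 of 37038 genes higher. It was also 0, beside 2 of 20649 genes higher, with edgeR on the recovered reads, which rescales the libraries. It became 0 without 4OHT library 2 or without DMSO library 1 of 8 min, and the Fbn1 call was also lost without DMSO library 2 of 8 min (adjusted p = 0.0657) and without either DMSO library of 0 min (adjusted p = 0.0641 and 0.0634).

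**Figure D3:**
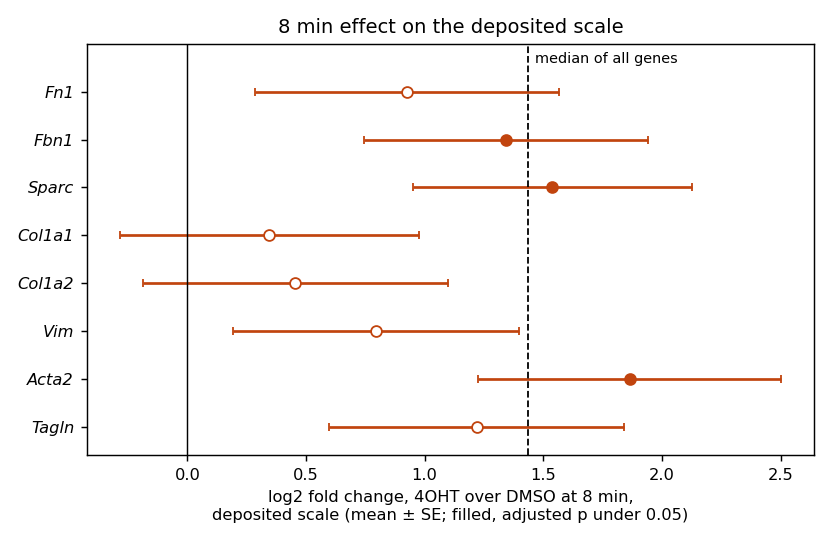
Log2 fold change of 4OHT over DMSO at 8 min on the deposited scale (horizontal axis) for the 8 tested genes, with bars for the standard error, filled points for an adjusted p under 0.05 and a dashed line at the median of all genes (1.43). Acta2, Sparc and Fbn1 are filled, and Col1a1, Col1a2, Vim and Fn1 lie farthest to the left of the line.

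The difference between the 8 min and the 0 min effect was tested directly on the deposited scale. None of the 8 members passed, with log2 differences from -0.92 for Col1a1 to 1.56 for Fbn1 and adjusted p of 0.295 to 0.842, beside 0.387% of all genes higher and 0% lower. With all 8 libraries scaled together, the differences were -2.09 for Col1a1, -1.03 for Vim and -0.74 for Fn1, with adjusted p of 0.755, 0.761 and 0.755, and no gene of the table was called. A fall at 8 min that exceeds the 0 min effect was thus not shown for these 3 genes.

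With labelling time, all 8 tested members gained less than the median gene with 4OHT, and 7 of 8, all but Vim, with DMSO. On the deposited scale the log2 change of 8 over 0 min had a median over all genes of 2.49 with 4OHT and 1.25 with DMSO. Vim had 86.6 and 137 at 8 min, against 21.8 and 27.6 at 0 min with 4OHT, and 47.0 and 82.4 at 8 min, against 16.4 and 15.7 at 0 min with DMSO. It rose by 2.10 with 4OHT (adjusted p = 0.000803) and by 1.89 with DMSO (adjusted p = 0.00471), and the DMSO value rested on DMSO library 2 of 8 min, without which the adjusted p was 0.147. Fn1 rose by 1.54 (adjusted p = 0.0228), Fbn1 by 1.51 (adjusted p = 0.0163) and Acta2 by 1.47 (adjusted p = 0.0296) with 4OHT, which makes 4 of 8 members higher beside 74.0% of all genes, and 0 lower beside 0.823%. The Acta2 values overlapped, with 13.986 and 58.3 at 8 min, against 4.69 and 19.3 at 0 min. Acta2 passed the filter only through 4OHT libraries, both of those of 8 min among them. Its call and its place in this count therefore support nothing. Without 4OHT library 2 of 8 min, or without 4OHT library 1 of 0 min, Vim alone was called. With DMSO, Vim was the 1 member of 8 called higher beside 47.0% of genes, and 0 were lower beside 1.95%.

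After median-ratio scaling of all 8 libraries, no member rose with time in either treatment, beside 30.3% of genes with 4OHT and 31.1% with DMSO. With 4OHT, Fn1, Col1a1, Col1a2, Tagln and Sparc were lower at 8 than at 0 min relative to the other genes, 5 of 8 beside 27.3%. With DMSO, Col1a2, Tagln, Fbn1 and Sparc were lower, 4 of 8 beside 26.1%. Sparc gave -1.41 with 4OHT (SE 0.211, adjusted p = 0.00092) and -1.41 with DMSO (SE 0.211, adjusted p = 0.00102). Tagln gave -2.20 with 4OHT (adjusted p = 0.00316) and -1.82 with DMSO (adjusted p = 0.00791), and Col1a2 -1.59 (adjusted p = 0.0105) and -1.94 (adjusted p = 0.00449). Fn1 gave -0.95 with 4OHT (adjusted p = 0.00353) and -0.21 with DMSO (adjusted p = 0.373), and Col1a1 -2.30 with 4OHT (adjusted p = 0.00822) and -0.21 with DMSO (adjusted p = 0.768). As given above, the difference between treatments was not past the threshold for either gene. Sparc, Tagln and Col1a2 were thus the members lower with time in both treatments on this scale. Titles and columns disagree on whether the cell line changed with labelling time.

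**Figure D4:**
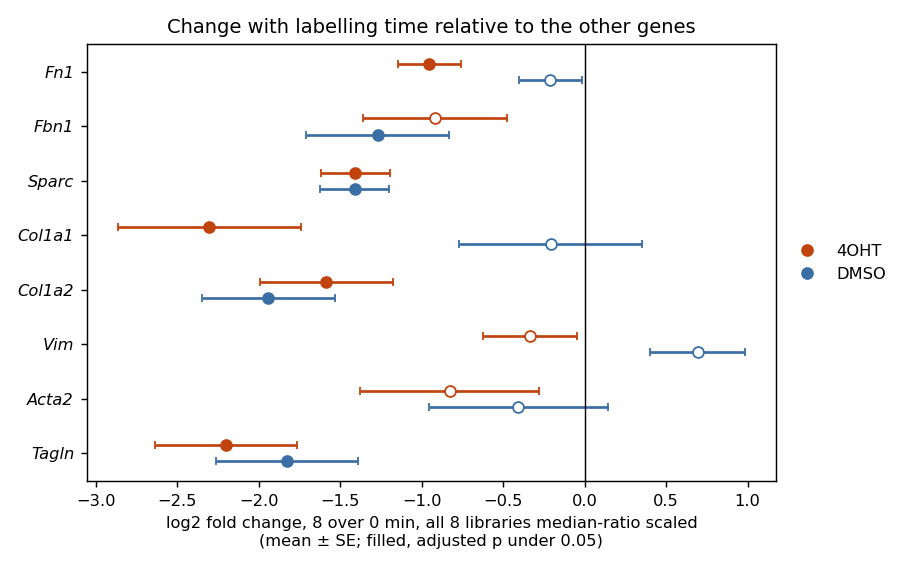
Log2 change of 8 over 0 min (horizontal axis) after median-ratio scaling of all 8 libraries, for the 8 tested genes with 4OHT (upper points) and DMSO (lower points), bars for the standard error and filled points for an adjusted p under 0.05. All values except that of Vim with DMSO (0.69, adjusted p = 0.0688) lie below 0.

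Per kilobase of gene, the scaled values at 8 min ran from fibronectin down to type III collagen. With 4OHT the order was Fn1 (13.5 per kb), Sparc (8.19), Vim (7.66), Tagln (3.03), Acta2 (1.26), Col1a1 (0.742), Thy1 (0.423), Fbn1 (0.274), Col1a2 (0.137) and Col3a1 (0.0272). The libraries of Sparc and Vim overlapped, as did those of Acta2 and Col1a1, and the other neighbours did not. With DMSO the order was Fn1 (19.6 per kb), Vim (12.1), Sparc (7.74), Tagln (3.19), Col1a1 (1.55), Thy1 (1.01), Acta2 (0.78), Fbn1 (0.293), Col1a2 (0.258) and Col3a1 (0.0463), and only the neighbours Fbn1 and Col1a2 overlapped. Vim stood above Sparc with DMSO and did not differ from it beyond the spread with 4OHT. At 0 min Fn1 had 6.88 per kb with 4OHT and 6.36 per kb with DMSO, and Tagln stood above Vim in both groups, with 3.74 against 2.60 per kb with 4OHT and 3.44 against 2.09 per kb with DMSO. Lengths are those of the whole gene in GRCm38.p6, introns included. Where along each gene the reads of 8 min of label lay is not known here. Dividing by whole length puts Fbn1 (206 kb), with 804 and 1001 reads with 4OHT at 8 min, below Thy1, with 34 and 36. The order is thus one of reads per whole length and not a ranking of transcription.

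Other genes of the same programme were read from 6 lists, with the scaled comparison of 4OHT and DMSO at 8 min and the same test. The shares of all genes called, 18.6% higher and 16.7% lower, are the background of these counts. When all 8 libraries were scaled and fitted together, 0 genes were called in each of the 6 lists. Of 28 tested matrix structural genes, 9 rose and 4 fell, with a median log2 fold change of 0.16. Those that rose were Lama1, Lama5, Lamb1, Nid2, Hspg2, Col18a1, Fbln1, Vcan and Mfap2, and those that fell were Col12a1, Nid1, Mfap5 and Spp1. Col18a1, the gene of the collagen that yields endostatin, averaged 463 ± 5.60 with 4OHT and 253 ± 8.08 with DMSO (SD, n = 2 each) and rose by 0.87 (adjusted p = 2.5e-06). Nid2, which encodes the basement membrane linker nidogen-2, rose by 0.29 (adjusted p = 0.041), and Lamc1, a laminin chain, gave 0.26 (adjusted p = 0.0735).

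Of 23 collagen processing genes, 5 rose, P4ha2, Plod2, Serpinh1, Fkbp10 and Adamts2, and Loxl2 fell, with a median of 0.09. Plod2, a lysyl hydroxylase of collagen, rose by 0.55 (adjusted p = 0.000602), whereas P4hb gave -0.12 and P4ha1 0.23, neither past the threshold. The count of 5 was 2 without 4OHT library 1 and 3 without 4OHT library 2 of 8 min.

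Of 30 actin cytoskeleton and SRF target genes, 6 rose and 5 fell, with a median of 0.03. Myh9, non-muscle myosin heavy chain, rose by 0.51 (adjusted p = 0.000907), while Actb, β-actin, gave -0.24 (adjusted p = 0.0987) and Actn4, an actin crosslinker, 0.14. The 5 that fell were Actg1, Cnn2, Tpm4, Tagln2 and Fhl1, and their number was 0 without 4OHT library 1. Of 18 TGF-beta pathway genes, 9 rose, including the receptor gene Tgfbr1 and the mediators Smad2 and Smad3, and 0 fell, with a median of 0.35. Ski and Skil, both encoding repressors of SMAD-driven transcription, rose by 0.62 (adjusted p = 0.000151) and 0.59 (adjusted p = 0.000338), and Smad7, an inhibitory SMAD, gave 0.24 (adjusted p = 0.117).

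Of 22 integrin and matrix receptor genes, 7 rose and 6 fell, with a median of 0.11. Sdc4 and Sdc1, heparan sulphate proteoglycans of the cell surface, rose by 0.76 (adjusted p = 1.19e-05) and 0.86 (adjusted p = 7.09e-06), and Itgb1, the β1 integrin that pairs with most matrix-binding α chains, gave 0.03. Among those that fell was Itga5, whose product pairs with β1 integrin as the classical fibronectin receptor. The count of 6 was 3 without 4OHT library 2. Of 12 epithelial-mesenchymal transition genes, 3 rose (Snai2, Zeb1 and Ocln) and 3 fell (Cdh2, Epcam and Grhl2), with a median of -0.03. The 3 that rose were 0 without 4OHT library 1 and 1 without DMSO library 2. Epcam fell by 0.48 (adjusted p = 0.00137) and Cdh1, E-cadherin, gave 0.04.

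**Figure D5:**
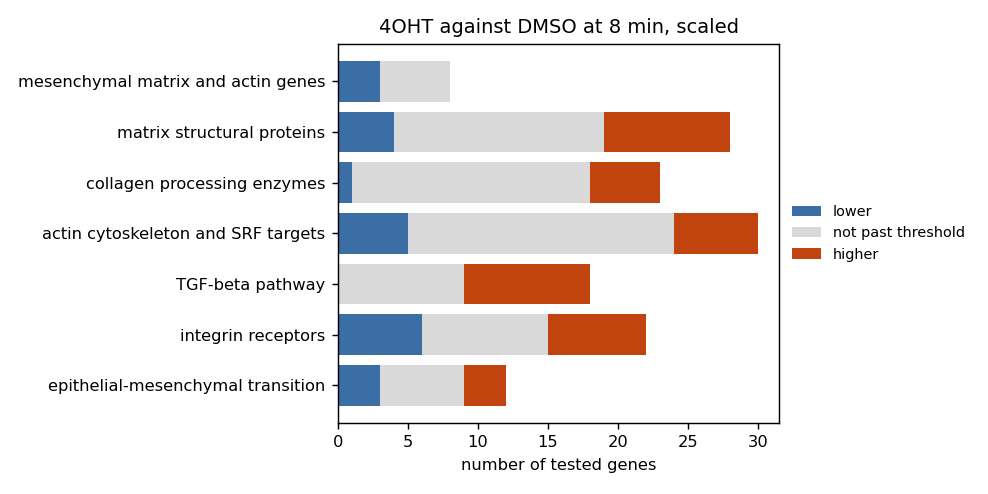
Number of tested genes (horizontal axis) that were lower, not past the threshold or higher with 4OHT against DMSO at 8 min on scaled values, for the 8 tested matrix and actin genes and 6 lists of related genes. The matrix and actin genes show 3 lower and 0 higher, the TGF-beta pathway 9 higher and 0 lower.

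Markers of other cell types moved in both directions at the same time. Among fibroblast markers, Mmp2, a matrix metalloproteinase, rose by 1.06 (adjusted p = 2.63e-05), Pdgfrb fell by 1.05 (adjusted p = 0.00987) and Pdgfra gave 0.07. Among primitive and parietal endoderm markers, whose summed scaled value was 558 to 613 with 4OHT, against 345 to 352 with DMSO, 3 of 7 tested genes rose (Lama1, Lamb1 and Dab2) and Nid1 fell by 0.57 (adjusted p = 0.00831). Lamb1, Lama1 and Nid1 are also in the matrix list, and Lamb1 and Lama1 rose by 1.59 and 1.04. Of 10 embryonic stem cell markers, Sox2 rose and Nanog, Tdgf1 and Dppa5a fell, and Tdgf1 fell by 0.66 (adjusted p = 0.000159). The Sox2 call was lost without 4OHT library 2, the Pdgfrb call without 4OHT library 2 or DMSO library 2, and the Nid1 call without 4OHT library 1 or DMSO library 2. Endothelial markers summed to 448 to 449 with 4OHT, against 308 to 316 with DMSO, and blood markers to 143 to 150.5 with 4OHT, against 275 to 276 with DMSO, of which 1 passed the filter, Cd68, which fell. In the fit of all 8 libraries, 0 of these markers were called. The part of such cells in the values of the matrix and actin genes was not tested, and in bulk RNA fewer cells of a type and less RNA per cell cannot be told apart.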

How the data were processed

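The authors deposited 1 table of normalised signal for 8 libraries of 4sU-labelled RNA. The tools named in the submitters' processing notes are STAR 2.7, Bowtie2 and bcl2fastq, with mm10 as the build and no role stated. The deposited signal was a whole number of reads over 1 divisor per library (8.095 to 29.49): multiplied back, 100% of entries were whole within 0.01. What the divisor stands for and the strand counted are not given in the sources used here. Of 80 values of the 10 genes, 73 were even read numbers, and whether both mates were counted is not stated.

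Repeat or structural and spike-in entries (1134 and 60) were left out. Log2(value + 1) was fitted with limma 3.58.1 (R 4.3.3; eBayes with a trend, two-sided, Benjamini-Hochberg at 0.05 over all genes), on the deposited scale with all 8 libraries, and after median-ratio scaling with the 4 libraries of a labelling time. Such fold changes understate changes of low genes. edgeR 4.0.16 and DESeq2 1.42.0 ran on the recovered reads. Only the comparison of 4OHT with DMSO in the 4 libraries of 8 min was run on simulated counts, with 1 fixed spread. The fits of all 8 libraries were not simulated. The members and lists were chosen with earlier results of these data known. From each list the 3 genes of highest mean value were picked for naming, and other genes were named after their values were seen. The column numbers were not taken as pairs, since titles and columns disagree on the cell line. After median-ratio scaling of all 8 libraries, differences between the 2 libraries of a group correlated between groups at 0.0188 to 0.417, not all above 0.1. That scaling removes shifts of a whole library, so the check does not cover the deposited scale. There, number 2 had the larger median-ratio factor in each group (at 0 min, 0.831 and 1.53 with 4OHT, 0.845 and 0.975 with DMSO). Fits with the number as a block are given below. Gene positions come from RefSeq (GRCm38.p6).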

Additional observations from a re-analysis of the deposited data

How the results depend on the processing

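On scaled values at 8 min, the calls of Fn1, Vim and Col1a1 were shared by pseudocounts of 0.5 and 5, a minimum of 1, robust empirical Bayes, TMM scaling, edgeR and DESeq2. The number lower was 0 with no filter, 1 with a minimum of 100 (where Fn1 alone of the 3 was tested) and 0 with all 8 libraries scaled. It was 2 to 3 when 1 library was left out, and the number higher 0 to 1. The 1 higher was Acta2, which passed the filter only through 4OHT libraries, so that it supports nothing. Over all genes, 3838 rose and 3454 fell in that comparison, against 0 and 0 with no filter and 2 and 28 with all 8 libraries. The cause was not tested. Without 4OHT library 1, 2143 rose and 2007 fell.

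On the deposited scale at 8 min, 3 members were higher, against 0 with no filter, 1 with a minimum of 100, 5 with the replicate block (Fn1 and Tagln added), 0 after median-ratio scaling, 0 with edgeR and 0 to 4 when 1 library was left out. All genes higher there numbered 12128, against 6530 with no filter, 7687 with a minimum of 100, 2 after median-ratio scaling, 2 with edgeR, 239 without 4OHT library 2 and 299 without DMSO library 1. For the difference of the effects, 0 members were higher, against 2 with the replicate block (Fbn1 and Sparc) and 0 to 1 when 1 library was left out (Fbn1, without 4OHT library 2 of 0 min). All genes higher there numbered 80, against 6200 with the replicate block. For 4OHT against DMSO at 8 min on the deposited scale, that block gave 17077 of 20649 genes higher, beside the 5 members above.

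For 8 against 0 min with 4OHT, 4 were higher, against 2 with no filter, 1 with a minimum of 100, 0 after median-ratio scaling or with edgeR, and 1 to 5 when 1 library was left out. The number lower was 0, against 5 after median-ratio scaling and 5 with edgeR. Over all genes, 15286 of 20649 were higher, against 18350 of 37038 with no filter and 8777 of 10327 with a minimum of 100. The number was 6265 after median-ratio scaling and 5707 with edgeR, and genes lower numbered 170, against 5636 and 5551. With DMSO, 1 was higher, against 0 with a minimum of 100, 2 with the replicate block, 0 after median-ratio scaling or with edgeR, and 0 to 1 when 1 library was left out. The number lower was 0, against 4 after median-ratio scaling and 4 with edgeR. Over all genes with DMSO, 9706 of 20649 were higher, against 6299 of 10327 with a minimum of 100 and 11751 with the replicate block. Genes higher numbered 6416 after median-ratio scaling and 5616 with edgeR, and genes lower 403, against 5395 and 5520.

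Some directions turned, and the cause was not tested. After median-ratio scaling and with edgeR, 8 over 0 min with 4OHT was -0.95 and -0.92 for Fn1, -0.34 and -0.34 for Vim, -0.83 and -0.82 for Acta2 and -0.92 and -1.04 for Fbn1. At 8 min, 4OHT over DMSO was -0.18 and -0.10 for Fbn1, and -0.0034 after median-ratio scaling for Sparc. With all 8 libraries scaled, it was -0.0034 for Sparc, -0.048 for Itgb1, -0.037 for Cdh1, -0.0098 for Pdgfra and -0.031 for Cnn1. Leaving out 1 library of 8 min gave ranges of -0.15 to 1.15 for Acta2, -0.72 to 0.38 for Tagln, -0.031 to 0.18 for Sparc, -0.10 to 0.17 for Itgb1, -0.030 to 0.11 for Cdh1, -0.18 to 0.054 for Tcf4, -0.093 to 0.22 for Pdgfra, -0.16 to 0.083 for Smtn and -0.11 to 0.19 for Cnn1. At 0 min the ranges were -0.17 to 0.44 for Tagln, -1.17 to 0.12 for Fbn1, -0.17 to 0.14 for Sparc and -0.16 to 0.64 for Ythdc1. None of the changes in these leave-out ranges was called with all libraries in the fit.

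The numbers in the columns were not taken as pairs, and the replicate block changed the scaled count of members in no comparison. Col3a1 and Thy1 had 10 to 101 reads a library, which limits the precision of their values.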
